A study of Mus musculus with 8 samples.

Results

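The Jun, Junb and Jund genes encode the JUN proteins, core members of the AP-1 transcription factor. JUN proteins pair with each other or with FOS, BATF or ATF proteins through a leucine zipper and bind the sequence TGANTCA, or the related TGACGTCA, at promoters and enhancers. In myeloid cells AP-1 acts beside C/EBP and NF-kB factors during differentiation and in the response to bacterial products such as LPS, and JUN itself is activated when the kinase JNK phosphorylates it. Jun and Junb are immediate early genes, while Jund is known for steadier expression.

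The loops described here were the 41 pairs of 5 kb bins, found over 4 lists and 3 of 21757 protein-coding genes, in which 1 bin held the start site of the canonical transcript of Jun, Junb or Jund. H3K27ac HiChIP, which ligates DNA fragments that lie close together and enriches for those carrying acetylated histone H3 lysine 27, a mark of active promoters and enhancers, was performed on HPC-7 cells. HPC-7 is a mouse haematopoietic progenitor line that grows in stem cell factor. The cells carried p30, the shorter isoform of the transcription factor CEBPA, or p42, its full-length form, and were untreated (UT) or exposed to LPS at 100 ng/mL for 2 h. The 4 groups, written p30 UT, p42 UT, p30 LPS and p42 LPS, had 2 replicates each and 8 libraries in all. Where 4 values follow each other without labels, the p30 pair stands first and each pair gives the untreated cells before the LPS-treated ones. All groups expressed a CEBPA isoform, so none was a control without one. The isoforms were introduced by retroviral transduction and the transduced cells were sorted, so each line was a population with a viral transgene. The methods describe constitutive forms and forms fused to a hormone-binding domain. They give the names p30 HPC-7 and p42 HPC-7 to the lines with fused forms, and a legend on the HiChIP loops uses the latter name. Cells with fused forms were treated with 4-hydroxytamoxifen before experiments, to move the protein into the nucleus. The HiChIP samples themselves were not labelled with the form.

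Each group had 1 list of loops that pooled its replicates, so that no spread between replicates could be computed and no test was made. Every difference below compares those 4 lists, and any interval covers counting error only. The lists held 78591 to 158233 loops, drawn from 14503330 to 18999991 modelled contacts, and p42 UT was the longest. Numbers of loops were therefore compared after each list was cut to the 78591 loops with its smallest q-values. A call here means a ratio of at least 1.5-fold in either direction, also written as past 1.5-fold, and for contacts also an interval that leaves out 1. The cell type was checked with promoter loops of marker genes. All 8 progenitor markers had promoter loops in every list, 55 to 123 in sum, and none of the 3 T cell markers and none of the 2 neuronal markers had any. The 2 mature macrophage markers had 5 to 12 loops in sum, the 3 B cell markers 2 to 6, the 2 muscle markers 1 to 4 and the 2 hepatocyte markers at most 1.

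The promoters of the 3 genes differed in sequence. Jun lies at chr4:94937271-94940459 on the minus strand (GRCm39, the build of the files) and its start-site bin, chr4:94940001-94945000, also holds the start of the divergent long non-coding RNA Junos. Junb lies at chr8:85701113-85705359 on the minus strand, and no other gene starts in its start-site bin, chr8:85705001-85710000. Jund lies at chr8:71151599-71153265 on the plus strand, and its start-site bin, chr8:71150001-71155000, also holds the starts of the non-coding genes Gm64347, Gm64349 and Gm11175. The start sites of Jun and Junb were 458 and 346 bases from the edge of the bin, so that 459 and 347 transcribed bases lay in it. The whole of Jund lay in its bin. The 250 bases before each start site are printed because they hold the promoters of the start-site bins, while the loops are resolved only to whole 5 kb bins. They run 5′ to 3′ on the strand of the gene, with motif matches in capitals.
Jun, chr4:94940460-94940709, minus strand: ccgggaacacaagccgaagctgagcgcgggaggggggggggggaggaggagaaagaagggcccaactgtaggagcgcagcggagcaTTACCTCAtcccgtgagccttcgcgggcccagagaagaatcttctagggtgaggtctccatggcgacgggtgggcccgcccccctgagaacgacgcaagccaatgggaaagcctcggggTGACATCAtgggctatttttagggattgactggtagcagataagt
Junb, chr8:85705348-85705597, minus strand: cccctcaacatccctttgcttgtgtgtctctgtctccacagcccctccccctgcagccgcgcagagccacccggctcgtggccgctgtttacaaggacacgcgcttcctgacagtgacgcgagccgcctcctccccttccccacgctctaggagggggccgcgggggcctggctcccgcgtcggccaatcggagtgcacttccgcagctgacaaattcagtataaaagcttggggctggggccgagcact
Jund, chr8:71151349-71151598, plus strand: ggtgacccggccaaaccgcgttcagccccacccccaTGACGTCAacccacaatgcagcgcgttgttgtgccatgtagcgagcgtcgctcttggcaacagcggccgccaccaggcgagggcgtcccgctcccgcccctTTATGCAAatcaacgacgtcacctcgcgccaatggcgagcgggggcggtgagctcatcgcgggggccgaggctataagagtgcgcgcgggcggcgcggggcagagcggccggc

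The AP-1 motif TGANTCA was in none of these 3 stretches and in 6.18% of the 21757 promoters of the same length. Jund held 1 match to the cyclic AMP response element TGACGTCA, 214 to 207 bases before its start site, a motif found in 1.70% of promoters. It also held 1 match to TTGCNNAA, the C/EBP motif, as TTATGCAA on the other strand at 113 to 106 bases, which 9.34% of promoters held. The NF-kB motif, GGG and TTTCC with any 2 bases between them, was in none of the 3 and in 1.47% of promoters. A pair of variants of the AP-1 site that are known from the Jun promoter was looked for after the data had been examined. TGACATCA lay 45 to 38 bases and TTACCTCA 164 to 157 bases before the Jun start site, and these were found in 2.61% and 0.602% of promoters. Both strands were searched and no matches overlapped. GC content was 61.2% in Jun, 65.6% in Junb and 69.6% in Jund, with a median of 53.2% over all promoters, and the observed over expected CpG ratio was 0.676, 0.725 and 1.09, with a median of 0.474.

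The genes had different loop profiles within each list. Jund had the most loops, those of Jun were all distant, and those of Junb came from a bin of very high coverage. As deposited, Jun had 3 promoter loops untreated and 3 with LPS in p30, and 9 and 6 in p42. Junb had 3, 5, 4 and 2 in the same order. Jund had 13, 18, 14 and 8. The median over genes with any promoter loop was 3 in both p30 lists and 5 and 3 in p42. Jund was above the other 2 genes in every list, and between 3.09% and 16.2% of the genes with a promoter loop had as many or more. For Junb this share lay between 39.3% and 73.2%, and for Jun between 26.1% and 60.3%.

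In lists of equal size, Jun had more promoter loops in p42 than in p30 and Jund had fewer, untreated and after LPS. Jun had 3 loops untreated and 3 with LPS in p30, and 6 and 6 in p42. Jund had 13, 14, 8 and 8 in the same order. For each of these genes the p30 and p42 lists did not overlap in number. Of 3821 genes with at least 5 loops in some list, 14.6% likewise had more in both p42 lists than in either p30 list and 14.7% fewer. The p42 to p30 ratio of Jun was 2.0 untreated, where 27% of the 3334 genes with at least 5 loops in either list were past 1.5-fold in that direction, and 2.0 after LPS, where 16.4% of 3271 were. The ratio of Jund was 0.615 untreated, where 15.3% of genes were past 1.5-fold lower, and 0.571 after LPS, where 28.8% were. Such ratios were thus common among all genes. In these bulk samples a loop in fewer cells and a weaker loop per cell cannot be told apart. The untreated Jund ratio turned to 1.08 in the deposited lists, with 14 loops in p42 UT and 13 in p30 UT. The Jun ratio after LPS turned to 0.50 at q-values under 1e-05, with 1 loop in p42 LPS and 2 in p30 LPS.

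Junb had 3 loops untreated and 4 with LPS in p30, and 3 and 2 in p42 in lists of equal size. It stayed under 5 loops in all of them and was not part of the background. The loop number of Jun was the same with and without LPS at equal list size, 3 in both p30 lists and 6 in both p42 lists. Jund went from 13 to 14 in p30 and stayed at 8 in p42, so that at equal list size no member was past 1.5-fold with LPS among the genes with at least 5 loops. In p42 this depended on the lists. The LPS ratio of Jun there was 0.375 at q-values under 0.001 and 0.167 under 1e-05, and that of Jund was 0.571 in the deposited lists and 0.250 at q-values under 1e-05. The shares of all genes past it were 24.1% more and 15.6% fewer in p30, and 10.9% more and 25.8% fewer in p42.

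**Figure D1:**
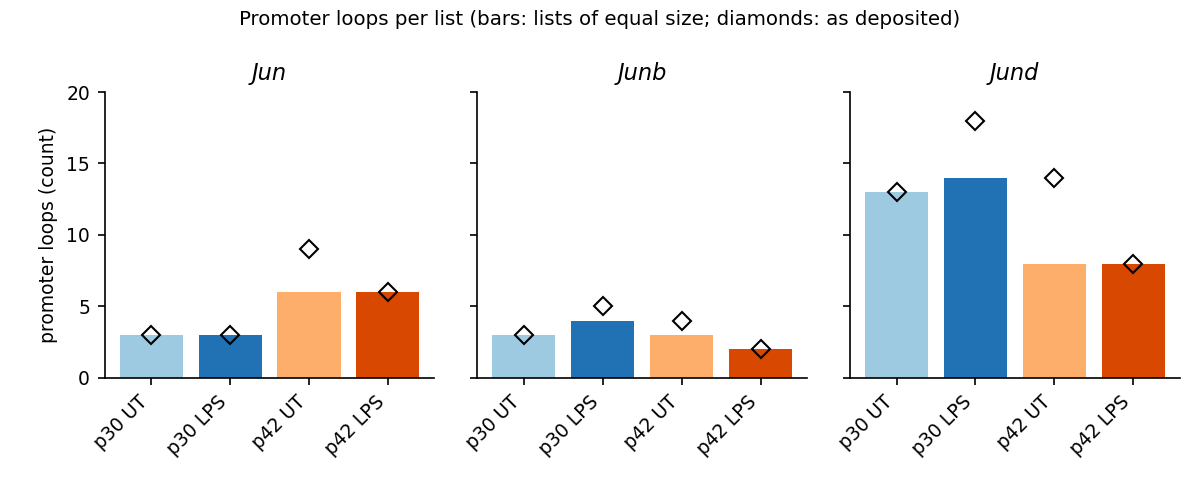
Number of promoter loops (y axis, count) of Jun, Junb and Jund in each list (x axis), 1 pooled list per group and no error bars. Bars are lists of equal size and diamonds the lists as deposited; Jun stands at 3 in both p30 bars and 6 in both p42 bars, and Jund at 13 and 14 against 8 and 8.

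The partners of Jun were all distal. All 11 partner bins lay upstream, 30 to 165 kb from the start-site bin, none held a coding gene, and every one carried an H3K27ac peak in the list that named it. The bins from 30 to 110 kb lay within Junos, and those from 155 to 165 kb within the non-coding genes Gm32240 or Gm12708. The median distance of the Jun loops was 105 kb untreated and 110 kb with LPS in p30, and 105 kb and 102.5 kb in p42, whereas over all promoter loops it was 45 or 50 kb. The Jun partners fell in 3 stretches, at 30 to 50 kb, 95 to 110 kb and 155 to 165 kb.

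The Jun partner bins in all 4 lists were 2 neighbours, at 105 kb (chr4:95045001-95050000) and 110 kb (chr4:95050001-95055000). The bin at 105 kb had 28 contacts with the promoter untreated and 15 with LPS in p30, and 28 and 19 in p42. That was 14.9, 8.69, 13.7 and 11 times the caller's expected count, which rises with the coverage of both bins and falls with distance. The bin at 110 kb had 13, 14, 19 and 12 contacts, or 7.35, 8.41, 9.77 and 7.05 times expected. Over the Jun loops of each list the median contacts over expected were 7.35, 8.41, 6.11 and 6.14. The medians of all promoter loops, at median distances of 45 or 50 kb, lay between 4.61 and 4.73. A loop entered a list only at a q-value under 0.01, which asks for a higher ratio where the expected count is small. The lowest Jun ratio in p42 LPS was 5.55, with 9 contacts over 1.62 expected. The Jun medians and those of all promoter loops are thus not compared like for like.

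The bins nearest to Jun, at 30 to 50 kb, were listed with its promoter in p42 alone in the deposited lists, which differ in length. The bin at 50 kb had 18 contacts untreated and 14 with LPS in p42, and the bins at 30, 40 and 45 kb had 20, 14 and 15 contacts in p42 UT. At equal list size the p42 UT list no longer held the bins at 40 and 45 kb. Contacts of pairs outside a list were not analysed here, so the level in p30 is unknown for these bins. In the third stretch, the bin at 160 kb (chr4:95100001-95105000) had 9 contacts with LPS in p30, 21 untreated and 9 with LPS in p42, and was not listed with Jun in p30 UT. Its contacts over expected were 6.16, 11.5 and 5.55 in those lists. Its neighbours at 155 and 165 kb were listed in p42 UT alone, with 14 and 10 contacts, the latter not at equal list size.

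The third stretch also differed in coverage, the number of reads in a bin, given here relative to the mean of peak bins in the same list. The bin at 160 kb stood at 1.56 untreated and 1.41 with LPS in p30, and 3.60 and 2.54 in p42, so that both p42 lists were above both p30 lists, as they were for 23.3% of 31321 peak bins with coverage in all 4. The p42 to p30 ratio was 2.31 untreated and 1.81 after LPS. The bin at 155 kb stood at 0.917, 0.754, 1.77 and 1.42, with ratios of 1.93 and 1.88. It was a Jun partner through p42 UT alone, where its coverage was highest, so these values are a description. These were the 2 bins past 1.5-fold higher in p42 among the 8 Jun partners with coverage in both untreated lists, and among the 6 in both LPS lists. Over all peak bins 4.78% were past it untreated and 3.87% after LPS, and 3.43% were past it lower untreated. Per modelled contact the ratios of the bins at 160 and 155 kb were 2.64 and 2.21 untreated, where 10.7% of peak bins were past 1.5-fold higher, and 1.43 and 1.49 after LPS, short of 1.5-fold. The bin at 160 kb had 4 loops of any kind untreated and 1 with LPS in p30, and 15 and 3 in p42, as deposited, where the p42 UT list held 158233 loops and the p30 UT list 80489. The bins at 105 and 110 kb had p42 to p30 ratios of 1.04 and 1.12 untreated and of 0.833 and 0.934 after LPS.

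Sequence is printed for 2 of these bins, chosen after their values were seen, on the plus strand of GRCm39 with the motif in capitals. The bin at 110 kb, looped to Jun in every list, held 3 matches to TGANTCA, and the stretches around the first and the last overlapped exons of Junos.
chr4:95050407-95050453: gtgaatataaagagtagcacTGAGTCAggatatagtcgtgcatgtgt
chr4:95050847-95050893: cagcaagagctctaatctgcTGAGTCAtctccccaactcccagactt
chr4:95054035-95054081: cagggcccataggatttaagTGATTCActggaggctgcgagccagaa

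The bin at 160 kb, whose coverage was higher in p42, held no TGANTCA. It held 4 matches to TTGCNNAA on either strand, as many as the bin at 110 kb.
chr4:95101540-95101587: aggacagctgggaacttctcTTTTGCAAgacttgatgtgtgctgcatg
chr4:95103506-95103553: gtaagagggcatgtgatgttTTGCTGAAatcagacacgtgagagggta
chr4:95103601-95103648: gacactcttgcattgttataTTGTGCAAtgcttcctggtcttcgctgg
chr4:95104245-95104292: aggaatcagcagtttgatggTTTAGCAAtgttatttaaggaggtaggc

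Neither motif was particular to the Jun partners. TGANTCA was in 9 of 11 Jun partner bins, 6 of 8 of Junb and 14 of 22 of Jund, and in 77.4% of all 64985 peak bins. TTGCNNAA was in 11 of 11, 7 of 8 and 16 of 22, and in 85.8% of all peak bins. The bin at 105 kb, with the most Jun contacts, held 0 matches to TGANTCA and 2 to TTGCNNAA.

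The start-site bin of Junb had one of the highest coverages of any gene. It stood at 4.64 times the mean of peak bins untreated and 6.16 with LPS in p30, and 5.60 and 4.90 in p42, and at most 1.07% of start-site bins in a list had as much. Its median contacts over expected were 3.55, 4.46, 3.73 and 3.60, the last over 2 loops. They were below those of Jun, Jund and all promoter loops in every list. These medians take in loops at 10 and 15 kb, where expected counts are high. At distances of at least 20 kb they were 4.73, 5.39, 3.86 and 4.50. Both p30 values were then above the medians of all promoter loops at any distance, and both LPS values were above those of Jund. Of its 8 partner bins, 7 lay upstream, and 5 held the start site of a coding gene.

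The Junb loop with the most contacts went to the bin 10 kb upstream that holds the start of Hook2, which encodes an adaptor linking cargo to microtubules. It had 150 contacts untreated and 191 with LPS in p30, and 229 and 143 in p42, or 2.74, 3.25, 3.37 and 2.69 times expected, the lowest ratio among the Junb loops in every list but p30 LPS. The other loop found in all 4 lists went to the bin 45 kb upstream with the starts of Get3, an ATPase that delivers tail-anchored proteins to the endoplasmic reticulum, and Trir, a ribonuclease. It had 28, 45, 34 and 31 contacts, or 3.55, 6.83, 3.86 and 4.50 times expected. Both loops had more contacts over expected in p30 LPS than in p30 UT.

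The remaining 6 Junb partners were each in 1 deposited list, and the genes in them are named here after their values were seen. In p30 UT alone, Junb was linked over 280 kb to the bin with the start of Lyl1, a helix-loop-helix factor of blood stem and progenitor cells, with 9 contacts at 5.91 times expected. In p42 UT alone it was linked to Tnpo2, a nuclear import receptor, with 21 contacts, and to the bin with the starts of Wdr83, Wdr83os and Man2b1, a lysosomal mannosidase, with 21 contacts. In p30 LPS alone it was linked to 3 bins at 15, 95 and 105 kb, with 42, 12 and 13 contacts. At equal list size the Tnpo2 loop and the one at 15 kb were in no list.

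Jund had a close-set landscape of partners on both sides. It had 22 partner bins, 14 upstream and 8 downstream, of which 11 held the start of a coding gene, and 8 were in all 4 lists, or 7 at equal list size. The median distance was 45 kb untreated and 60 kb with LPS in p30, and 47.5 kb and 37.5 kb in p42. The median contacts over expected were 4.85, 4.91, 4.20 and 4.39, close to those of all promoter loops. Its start-site bin stood at 2.80, 3.43, 2.95 and 2.58 times the mean of peak bins, and between 7.66% and 12.2% of start-site bins had as much coverage.

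The Jund loop with the most contacts, and the highest over expected, went to the start of Lsm4, 25 kb upstream, which encodes a subunit of the RNA-binding Lsm ring. It had 166 contacts untreated and 197 with LPS in p30, and 213 and 117 in p42, or 11, 15.2, 14 and 10.2 times expected. The bin 20 kb upstream, in the body of Lsm4, had 57, 50, 60 and 35 contacts, at 2.79 to 3.68 times expected. The bins at 30 and 35 kb upstream, which hold no gene and no peak, had 42 to 80 and 25 to 38 contacts, and they were the only partners without a peak among the 41 bins.

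Further upstream, Jund was linked in all deposited lists to Pgpep1, a peptidase that removes pyroglutamate, and to Lrrc25, a leucine-rich repeat membrane protein of myeloid cells. The Lrrc25 loop was not in the p42 UT list of equal size. The Pgpep1 bin had 29, 29, 24 and 19 contacts and the Lrrc25 bin, 85 kb away, had 17, 27, 15 and 15, or 4.93, 8.11, 4.15 and 4.56 times expected. Downstream, the bin with Rab3a, a GTPase of regulated secretion, had 23, 22, 31 and 17 contacts. The next bin, with Mpv17l2, a mitochondrial inner membrane protein, had 24, 22, 23 and 16. By contacts, which are not scaled to the depth of a list, p42 LPS was the lowest or joint lowest list for each of these partners. By contacts over expected the Lrrc25 bin was lowest in p42 UT and the others in p42 LPS. Over all genes the median contact fold per modelled contact was also below 1 in p42 LPS, at 0.808 over p42 UT and 0.840 over p30 LPS.

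Of the 8 Jund partner bins that 1 deposited list alone held, 6 were in p30 LPS. These included the starts of Ifi30, a lysosomal thiol reductase, Pik3r2, a regulatory subunit of phosphoinositide 3-kinase, and Kcnn1, a potassium channel, with 12, 12 and 9 contacts. At equal list size these 3 loops were in no list, and the other 3 of the 6 remained in p30 LPS. Both p30 lists and no p42 list held loops to Gm3336, with 28 and 23 contacts, and to Arrdc2, with 10 and 11, though the Gm3336 loop left the p30 LPS list at equal size. The start of Gdf15, a stress-induced cytokine of the TGF-beta family, was linked in p30 LPS with 19 contacts and in p42 UT with 14. In p42 UT alone there were loops to the body of Ell, an elongation factor, with 10 contacts and to a bin 15 kb upstream in the body of Lsm4 with 45. These 2 loops and the Gdf15 loop of p42 UT were not in the p42 UT list of equal size. These genes were named after their values were seen.

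**Figure D2:**
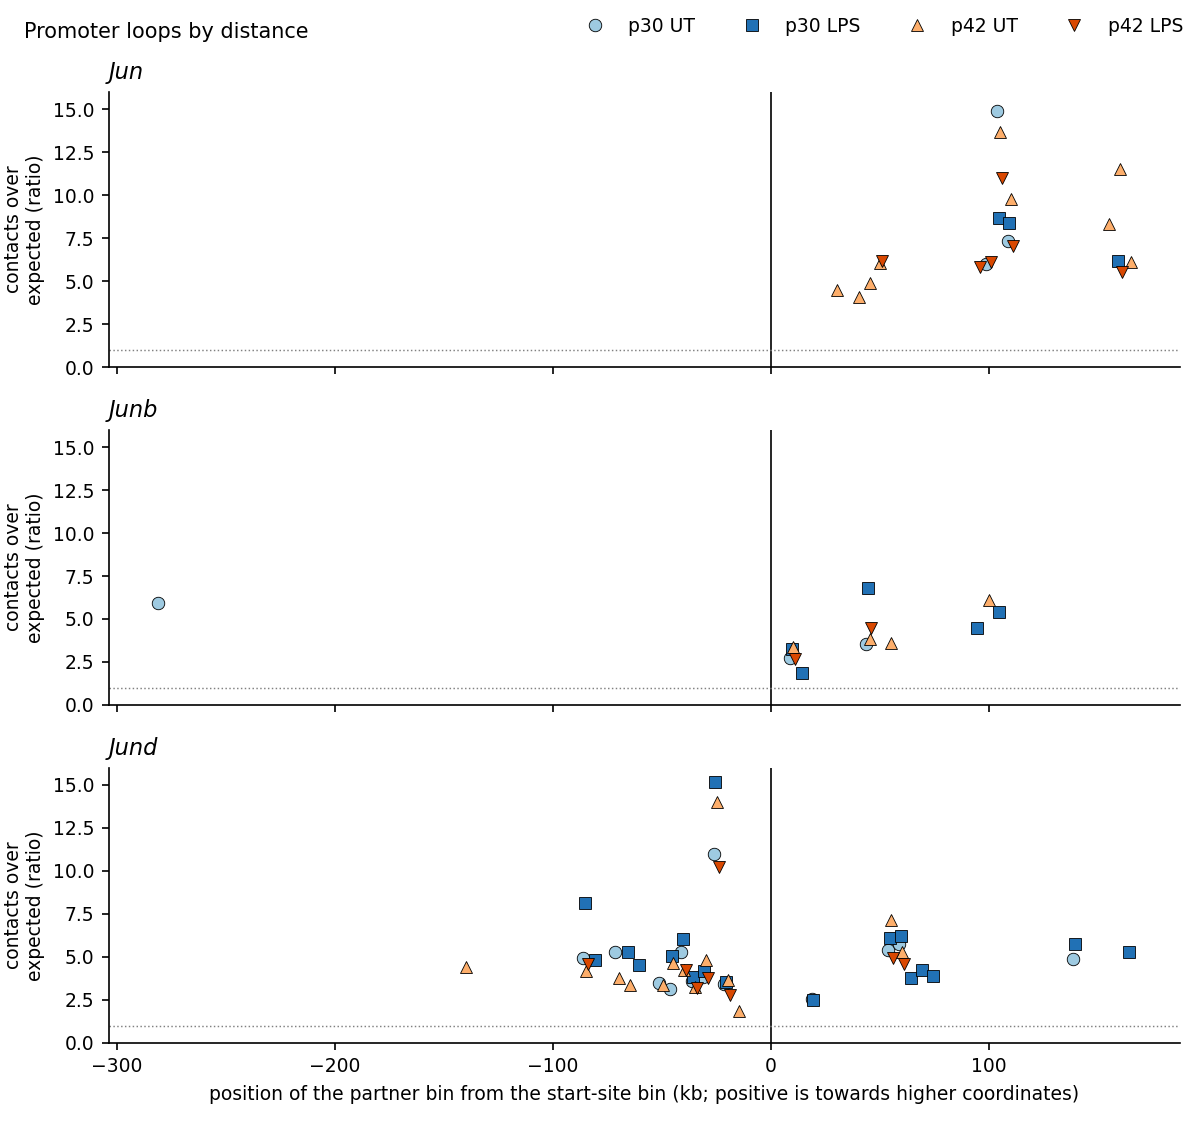
Contacts over the caller's expected count (y axis, ratio) against the position of the partner bin from the start-site bin (x axis, kb), 1 point per loop and list, shifted sideways by up to 1.2 kb so that lists can be told apart. The dotted line marks a ratio of 1; Jun partners lie 30 to 165 kb to the right, which is upstream, and the highest ratios are at 105 kb for Jun and at Lsm4 for Jund.

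Coverage in the Jund neighbourhood was highest in p30 LPS at several partners. The Lrrc25 bin stood at 4.59 times the mean of peak bins untreated and 8.20 with LPS in p30, and 4.50 and 5.11 in p42. The bin beside it, at 80 kb, stood at 3.12, 6.39, 3.19 and 3.88. With LPS in p30 these 2 bins were 1.79-fold and 2.05-fold higher, past 1.5-fold as were 2.28% of all peak bins, while 0.865% were past it lower, and were the only ones past it among the 34 partners of the 3 genes with coverage in both p30 lists on this scale. Per modelled contact 4 of the 34 were past it, with the bins of Hook2 (1.54) and Kcnn1 (1.57) added, beside 6.93% of peak bins. In p42 the LPS to UT ratios of the Lrrc25 bin and its neighbour at 80 kb were 1.14 and 1.22. None of 36 partners was past 1.5-fold there, where 1.58% of peak bins were higher and 1.16% lower. That count followed the scale, since 11 of the 36 were past it lower per modelled contact and 26 unscaled, beside 13.2% and 49.3% of peak bins. After LPS, 4 of 20 Jund partners were past 1.5-fold lower in p42 than in p30, at Lrrc25 (0.623), at its neighbour (0.606), at Lsm4 (0.593) and at Kcnn1 (0.529), where 2.88% of all peak bins were past it. The neighbour and the Kcnn1 bin were Jund partners through p30 LPS alone, where their coverage was highest, so their values are a description. The count was 16 of 20 per modelled contact, 11 unscaled and 3 relative to the median start-site bin, beside 16.8%, 8.83% and 1.59% of peak bins. The 20 ratios were all below 1, from 0.529 to 0.940 with a median of 0.765, and the median of all peak bins was 1.00. Per modelled contact the Jund median was 0.607 and that of all peak bins 0.793, and relative to the median start-site bin 19 of the 20 ratios were below 1. Adjacent bins can share a peak and partners of a gene share its neighbourhood, so they are not independent points.

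Junb had 8 of 8 partners below 1 in the same comparison, with a median of 0.884. The Man2b1 bin was past 1.5-fold lower at 0.644, as were 2.88% of all peak bins. Relative to the median start-site bin 6 of the 8 were below 1, with the Man2b1 bin at 0.689. None was past 1.5-fold lower on that scale, where 1.59% of all peak bins were. Per modelled contact 3 of 8 were past it lower, beside 16.8% of all peak bins. Untreated, 17 of 20 Jund partners were below 1, with a median of 0.870, and 6 of 8 Junb partners were above 1, with a median of 1.10. The median of all peak bins was 0.977 there. The untreated direction of Jund depended on the scale. Per modelled contact 11 of the 20 Jund ratios were below 1, with a median of 0.996, and unscaled 3 were, with a median of 1.05, where the medians of all peak bins were 1.12 and 1.18. A bin entered these counts only through a loop in at least 1 list, so the lists that named it bear on its level.

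Relative to the mean of peak bins, the start-site bins of the 3 genes differed by less than 1.5-fold in the 4 comparisons. The p42 to p30 ratio of coverage was 1.14 for Jun, 1.21 for Junb and 1.06 for Jund untreated, with a median of 1.04 over all start-site bins. None of the 3 was past 1.5-fold, and 3.72% of start-site bins were past it higher and 1.43% lower. After LPS it was 1.01 for Jun, 0.795 for Junb and 0.754 for Jund, with a median of 0.927, where 1.79% were past 1.5-fold higher and 3.71% lower. Jun itself stood at 0.906, 0.968, 1.03 and 0.976 times the mean of peak bins in the 4 lists, and between 67.7% and 78.9% of start-site bins had as much coverage or more. The LPS to UT ratio was 1.33 for Junb and 1.23 for Jund in p30, where 1.92% of start-site bins were past 1.5-fold higher and 0.359% lower. It was 0.875 for both genes in p42, where 0.743% were past it higher and 1.09% lower. The Jun ratios with LPS were 1.07 and 0.948. Per modelled contact, the p42 to p30 ratio after LPS was 0.631 for Junb and 0.598 for Jund and the LPS ratio of Junb in p30 was 1.53, all past 1.5-fold, as were 29.3% of start-site bins lower in the former comparison and 8.27% higher in the latter. Unscaled, Jund after LPS was at 0.652, where 14.6% of start-site bins were past 1.5-fold lower, and all 3 genes were past it lower with LPS in p42, where 75.2% were. The direction of the Jun ratio between isoforms after LPS (0.800 per modelled contact) and of the untreated Jund ratio (0.986 relative to the median start-site bin) also turned with the scale. So did the Jun ratios with LPS, to 0.995 unscaled in p30 and 1.05 relative to the median start-site bin in p42.

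**Figure D3:**
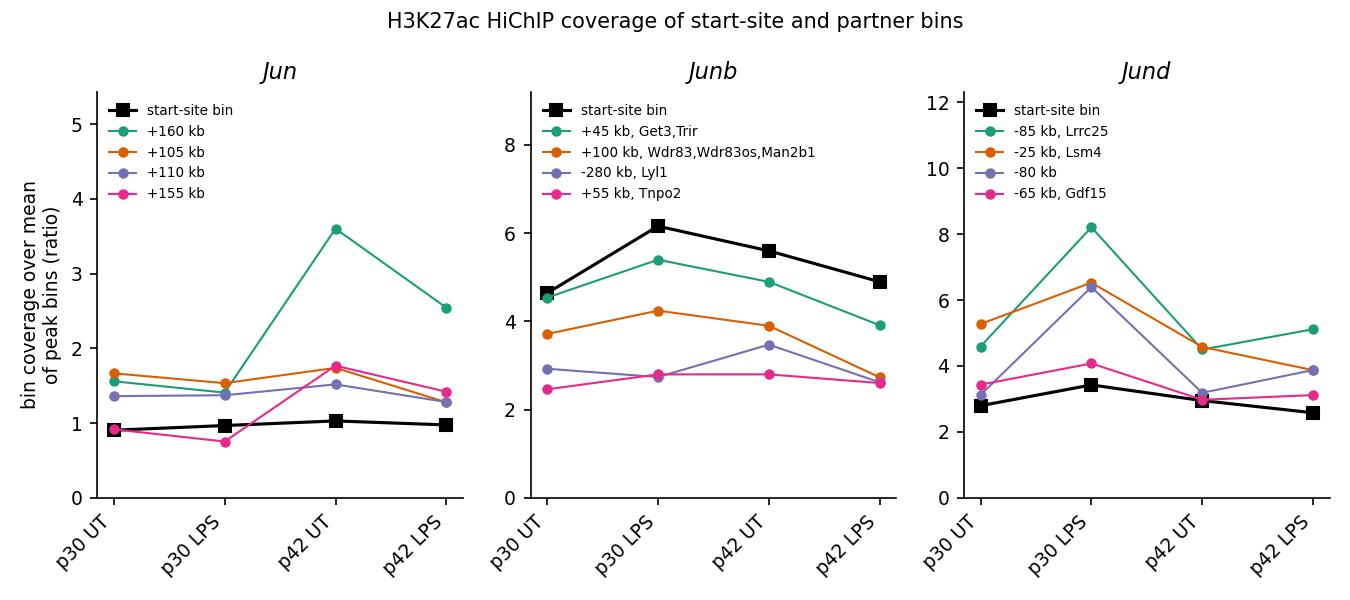
Coverage over the mean of peak bins of the same list (y axis, ratio) for the start-site bin and the 4 partner bins of each gene with the highest mean coverage, named in the key, in each list (x axis), with lines joining the values of 1 bin and no error bars, since there is 1 list per group. The Jun partner at 160 kb stands at 3.60 and 2.54 in p42 against 1.56 and 1.41 in p30, and the Lrrc25 bin at 8.20 in p30 LPS.

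Contacts were compared at the loops that all 4 lists held, 2 for Jun, 2 for Junb and 8 for Jund, as a fold per modelled contact with the 95% Wilson interval. Summed over these loops, Jun had 41 contacts untreated and 29 with LPS in p30, and 47 and 31 in p42. Junb had 178, 236, 263 and 174, and Jund had 401, 434, 484 and 286. Among the isoforms only Jund was called, and only after LPS.

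Untreated, the p42 to p30 fold was 1.08 for Jun (0.716 to 1.64), 1.40 for Junb (1.16 to 1.69) and 1.14 for Jund (1.00 to 1.30), with a median of 1.26 over 5045 genes. None of these was called, where 18.2% of genes were called higher and 0.575% lower. After LPS the fold was 0.979 for Jun (0.593 to 1.62), 0.675 for Junb (0.555 to 0.821) and 0.604 for Jund (0.520 to 0.701), with a median of 0.840. Jund alone was called lower in p42, as were 11.9% of genes, while 0.912% were called higher. Against the caller's expected counts in place of modelled contacts the Jund fold was 0.731, short of 1.5-fold.

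With LPS the fold in p30 was 0.877 for Jun (0.547 to 1.40), 1.64 for Junb (1.35 to 2.00) and 1.34 for Jund (1.17 to 1.54), with a median of 1.22. Junb was called higher, as were 11.7% of genes, while 0.297% were called lower. The Junb fold was 1.27 against expected counts. In p42 the LPS fold was 0.792 for Jun (0.505 to 1.24), 0.794 for Junb (0.656 to 0.961) and 0.709 for Jund (0.613 to 0.821), with a median of 0.808. None was called, where 0.396% were called higher and 12.7% lower. At distances of at least 20 kb, with 1 Junb loop left, the LPS fold of Junb was 1.99 in p30 and 1.09 in p42. The Jun intervals spanned 1 in all comparisons, so no change of its contacts was detectable at this depth. Comparisons that share a list, such as p30 LPS over p30 UT and p42 LPS over p30 LPS, are not independent.

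**Figure D4:**
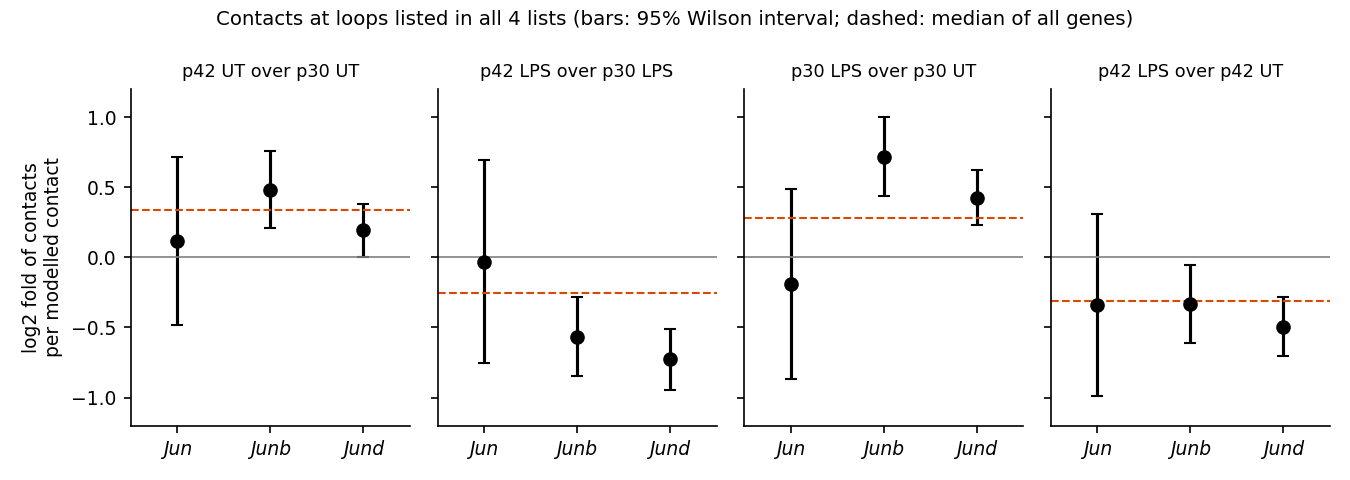
Log2 fold of contacts per modelled contact (y axis) at the loops listed in all 4 lists for each gene (x axis) in the 4 comparisons, with 95% Wilson intervals as bars and the median of all genes as a dashed line. Jund lies below 0 after LPS in p42 against p30, Junb and Jund lie above 0 with LPS in p30, and the Jun intervals all span 0.

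The partners and regulators of JUN proteins were counted from fixed lists. Of 11 genes for AP-1 partners, 10 had a promoter loop in some list of equal size and Batf2 had none. Of those with at least 5 loops, 1 of 2 was called more in p42 untreated and none fewer, and 2 of 5 were called more and 1 fewer after LPS. Over all genes 27% were called more and 15.3% fewer untreated, and 16.4% and 28.8% after LPS. The medians of their ratios were 1.49 and 1.27, beside 1.10 and 0.875 over all genes. Fos, the main partner of JUN, had 13 loops untreated and 11 with LPS in p30, and 17 and 14 in p42 and was not called. With LPS, 1 of 4 was called more in p30, and 1 of 4 more and 1 of 4 fewer in p42, where 24.1% of all genes were called more in p30, and 10.9% more and 25.8% fewer in p42.

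Of 20 genes for JNK signalling and JUN regulation, 13 had a promoter loop in some list of equal size. Among those with at least 5 loops, 2 of 6 were called more in p42 untreated and none fewer, and 1 of 6 was called in each direction after LPS, with median ratios of 1.18 and 0.859 and the background shares just given. With LPS, 3 of 5 were called more in p30, where 24.1% of all genes were, and none of 6 were called in p42. Itch, a ubiquitin ligase that targets JUN proteins, was the one gene of both lists called in the same direction in both isoform comparisons, with 4, 3, 6 and 8 loops. Its untreated ratio, 6 over 4 loops, was 1.5 and so lay at the threshold. Dusp1, a phosphatase that inactivates JNK and related kinases, had the most loops in these lists, at 36, 37, 36 and 34.

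Several genes had the same or nearly the same loop pattern as a member over the 4 lists of equal size, compared by the root mean square difference of centred log2 values. Hibch, Ino80b and Oplah had the same numbers as Jun, with a difference of 0, among 3975 genes of similar loop number. For Junb, 12 genes tied at 0 among 4265, and the first by name were Aasdh, Chaf1b and Fastk. For Jund the nearest of 2124 genes was Dennd4b, with 11, 12, 7 and 7 loops and a difference of 0.022, followed by Vps37c (0.050) and Sertad3 (0.052). Small whole numbers over 4 lists make such ties likely.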

How the data were processed

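Reads were mapped by the authors to mm39 with BWA-MEM (0.7.17), valid pairs were recorded and duplicates removed with pairtools, and loops were called with FitHiChIP in 5 kb bins at a q-value under 0.01. How replicates were pooled was not stated. Of 26 columns per list, 6 are positions, 10 were used and 10 were not. The deposited values used were contact counts and bin coverage counts, the expected count of contacts, its fraction of all modelled contacts, the ratio of bin coverage to its class mean, a peak flag and the q-value. The columns had no header and were identified from their values. Expected count over fraction gave the modelled contacts, and coverage over its ratio gave the mean of peak bins. Start sites were those of canonical protein-coding transcripts in GENCODE M39 (21757 genes). Scripts used Python 3.11.15, pandas 2.3.3 and numpy 2.4.6 and were tested on simulated data. Members, lists and thresholds were chosen with earlier results of these data known. Named genes were the members, genes starting in their bins, up to 6 genes per member in partner bins of all 4 lists, list genes called alike in both isoform comparisons, and the 3 most similar genes per member, compared as log2(loops + 0.5) among genes with 0.5 to 2 times its mean loops and no start within 1 Mb. Exceptions are named where they occur. Alternatives are given at the end.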

Additional observations from a re-analysis of the deposited data

Results flagged for a closer look

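For 6 values of the members, the pooled lists went one way with LPS in p30 and the other way in p42, each from 1 list per group, and none of these differences was tested. For Junb, the log2 LPS to UT ratio of contacts at the shared loops was 0.72 for p30 against -0.33 for p42, a difference of 1.05. At distances of at least 20 kb, which leaves out the Hook2 loop, the folds were 1.99 and 1.09, both above 1, so the opposite directions of the Junb contacts rest on that loop. That of its promoter loops was 0.42 and -0.58, a difference of 1.00 that rests on 1 loop more and 1 loop fewer. That of its start-site coverage was 0.41 and -0.19, a difference of 0.60. For Jund, the ratio of contacts was 0.42 and -0.50, a difference of 0.92, and that of start-site coverage 0.29 and -0.19, a difference of 0.49. For Jun, that of start-site coverage was 0.10 and -0.08, a difference of 0.17. The Jun opposition was lost on other scales, with ratios of 1.03 and 1.05 relative to the median start-site bin and 0.995 and 0.631 unscaled. Over all genes, the median contact fold with LPS was 1.22 in p30 and 0.808 in p42, the median coverage ratio of start-site bins 1.03 and 0.912, and the median loop ratio 1.09 and 0.875, so the opposite directions of all these measures were also those of the median gene.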

How the results depend on the processing

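No paired analysis was possible because each list pools its 2 replicates; for the same reason no replicate could be left out. Without replicates, counting error is the one error measured, and Jun rests on few contacts. Of the loop ratios, 103 of 120 alternative values lay within 1.5 times the reported one. The untreated p42 to p30 ratio of Jund turned to 1.08 in the deposited lists and to 1.14 at q-values under 1e-05, was 1.00 at q-values under 0.001 and 0.333 with adjacent partners counted together. The Jun ratio after LPS turned to 0.50 at q-values under 1e-05. At that threshold the other values that moved were 6.00 for Jun untreated, 2.00 for Jun with LPS in p30 and 0.167 in p42, 1.00 for Junb and 0.200 for Jund between isoforms after LPS, and 0.250 for Jund with LPS in p42. At q-values under 0.001 they were 0.375 for Jun with LPS in p42 and 2.00 for Junb untreated. With adjacent partners counted together, Jun had a ratio of 4 between isoforms untreated and 2.00 with LPS in p30. As shares of the deposited lists, Junb had 1.01 with LPS in p42, and by deposited numbers Jund had 0.571 there. Why these values moved was not tested.

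Of 48 alternative contact folds, 44 stayed within the reported interval. At distances of at least 20 kb, with 1 Junb loop left, the Junb fold was 1.15 between isoforms untreated, 0.631 after LPS, 1.99 with LPS in p30 and 1.09 with LPS in p42, where its direction turned. Against expected counts it was 1.27 with LPS in p30, and that of Jund was 0.731 between isoforms after LPS. Median contacts over expected of Jun at the loops in all 4 lists were 11.7 untreated and 9.01 with LPS in p42, and the other 34 alternative values stayed within 1 SD over loops.

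Coverage ratios depend on the scale, given here for Jun, Junb and Jund in turn. Per modelled contact they were 1.30, 1.38 and 1.21 for p42 UT over p30 UT, 0.800, 0.631 and 0.598 for p42 LPS over p30 LPS, 1.23, 1.53 and 1.41 for p30 LPS over p30 UT, and 0.758, 0.699 and 0.699 for p42 LPS over p42 UT. Relative to the median of start-site bins in all 4 lists they were 1.06, 1.13 and 0.986, then 1.08, 0.852 and 0.807, then 1.03, 1.28 and 1.18, then 1.05, 0.966 and 0.966. Unscaled they were 1.38, 1.46 and 1.28, then 0.873, 0.689 and 0.652, then 0.995, 1.23 and 1.14, then 0.631, 0.583 and 0.583. Past 1.5-fold were Junb and Jund after LPS and Junb with LPS in p30 per modelled contact, and Jund after LPS and all 3 genes with LPS in p42 unscaled, where 75.2% of all start-site bins were past it in that last comparison.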

Other observations

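The bins beside the start-site bins carried further loops, counted here within 200 kb on each side in the deposited lists, which differ in length. The next bin on the gene-body side of Junb, where most of its transcript lies, had 6 loops untreated and 10 with LPS in p30, and 13 and 7 in p42, more than the start-site bin in each list. The next bin upstream of Junb had 3, 5, 7 and 3. The next bin upstream of Jund had 8, 13, 8 and 4 loops and 8247, 9019, 9532 and 5371 reads, more reads than the start-site bin in each list, which had 6726, 7671, 8590 and 5005. Around Jun, the next bin on the gene-body side had 1, 0, 3 and 0 loops.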
